A study of Homo sapiens with 12 samples.

Results

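Of 38018 genomic regions with an SMC1 peak in at least 1 genotype, 994 had a peak in each of the 3 deletion genotypes and none in wild-type cells. These regions were chosen by measured values, namely the presence or absence of an SMC1 peak in each deposited list, so the SMC1 pattern that defines them is a description and not a finding. The peak lists of the 4 SMC1 libraries were merged wherever intervals overlapped by at least 1 bp. The deposited SMC1 list of ΔSCC4 held 12779 peaks, that of ΔWAPL 33952 and that of wild-type cells 18542. None of these is the number printed in the study's text. The printed number is much lower for ΔSCC4, higher for ΔWAPL and slightly lower for wild-type cells. Membership rests on the deposited lists, and thus on a ΔSCC4 list far longer than the text reports. A further 10707 regions had a peak in all 4 genotypes, 5372 lacked a peak only in ΔSCC4, 219 only in ΔWAPL/ΔSCC4 and 146 only in ΔWAPL. Among the 11701 regions with a peak in all 3 deletions, the share without a wild-type peak was 8.50%.

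The libraries were chromatin immunoprecipitation sequencing (ChIP-seq) from the near-haploid human line HAP1, with antibodies against SMC1 or CTCF or with IgG as control. The genotypes were unmodified wild-type cells, ΔWAPL and ΔSCC4 clones made by CRISPR with insertion of a drug-resistance cassette, and ΔWAPL/ΔSCC4 cells, in which SCC4 was knocked out in ΔWAPL cells and which thus carry both lesions. Each of the 12 combinations held 1 library. No replicate spread could be measured, no test between genotypes was made, and a genotype, its clone and its library cannot be told apart.

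SMC1 is a core subunit of cohesin, the ring-shaped complex that holds stretches of DNA together and folds chromosomes into loops. SCC4, the product of MAU2, works with SCC2 to load cohesin onto DNA, and WAPL opens the ring to release it. CTCF is a zinc-finger protein that binds a long sequence motif and marks the positions where cohesin accumulates at loop anchors.

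A 19-bp motif was learned from strong CTCF peaks of wild-type cells, using odd-numbered chromosomes, with NNGCCACCAGGGGGCGCNN as its consensus. It was searched on both strands within 100 bp of each summit. The stretches of 61 bp below are shown because they cover 4 kinds of region: CTCF in all genotypes, CTCF in the deletions only, and no CTCF near or away from a transcription start. A further 39 of the 994 had CTCF in other combinations of genotypes and are not shown by sequence. They were read from GRCh37, the same build as hg19, and none overlaps a UTR. Capitals mark the motif match, and sequences in lower case throughout had none above the threshold.
CTCF in all 4 genotypes, upstream of RYR2, chr1:237205310-237205370, plus strand: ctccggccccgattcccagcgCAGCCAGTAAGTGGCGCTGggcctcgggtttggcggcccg
CTCF in all 4 genotypes, intergenic near RNF165, chr18:43861282-43861342, plus strand: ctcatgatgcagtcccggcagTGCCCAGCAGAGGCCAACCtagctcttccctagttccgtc
CTCF in all 4 genotypes, intron of ENSG00000263745, chr18:2105033-2105093, plus strand: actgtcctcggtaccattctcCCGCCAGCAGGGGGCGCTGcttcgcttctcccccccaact
CTCF in the 3 deletions only, intergenic, chr2:64539602-64539662, plus strand: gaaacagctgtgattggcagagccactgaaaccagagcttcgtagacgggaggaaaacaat
CTCF in the 3 deletions only, coding exon of MYCBP2, chr13:77900839-77900899, plus strand: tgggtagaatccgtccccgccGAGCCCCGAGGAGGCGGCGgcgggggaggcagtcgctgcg
No CTCF, near the DRG2 start, chr17:17991168-17991228, plus strand: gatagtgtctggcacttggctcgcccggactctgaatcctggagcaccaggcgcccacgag
No CTCF, near a CD47 start, chr3:107809585-107809645, minus strand: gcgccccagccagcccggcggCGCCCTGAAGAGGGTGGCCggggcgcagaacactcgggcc
No CTCF, away from starts, chr10:22518224-22518284, plus strand: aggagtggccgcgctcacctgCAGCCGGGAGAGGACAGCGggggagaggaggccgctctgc
No CTCF, away from starts, chr1:148855190-148855250, plus strand: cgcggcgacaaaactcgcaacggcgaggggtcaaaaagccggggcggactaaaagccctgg
The match in the intron of ENSG00000263745 shared 14 of the 15 letters that the consensus fixes, against 11 upstream of RYR2 and 9 near RNF165. The matches at regions without a CTCF peak shared 8 letters at CD47 and 8 on chromosome 10.

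Recovered averages, in SMC1 reads per kb, were 6.79 in ΔWAPL/ΔSCC4, 7.66 in ΔWAPL, 8.13 in wild-type and 8.41 in ΔSCC4. At average background the weakest peak of each of the 4 SMC1 lists held 9 reads. The lists give no value where no peak was called, so the wild-type reads at these regions are unknown and may lie just under the caller's limit.

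The SMC1 peaks at these regions were weaker than those of regions with a peak in all 4 genotypes, called constant regions here, in each deletion. The median fold enrichment, the ratio of summit reads to local background as the peak caller gave it, was 5.08 in ΔSCC4 (95% interval of the median 5.02 to 5.15), 6.04 in ΔWAPL/ΔSCC4 (5.90 to 6.16) and 6.51 in ΔWAPL (6.35 to 6.71). At constant regions the corresponding medians were 6.17, 8.12 and 9.35, and 7.25 in wild-type. Over every region with a peak in the library they were 5.90, 6.33 and 6.30, so that in ΔWAPL the regions stood slightly above the median peak and in both SCC4 deletions below it. Regions missing only in ΔSCC4 were also weaker than constant ones, with medians of 6.19 in ΔWAPL/ΔSCC4 and 7.08 in ΔWAPL. These intervals, like all others here, cover counting error only. In reads, the median summit stood at 15 in ΔSCC4 (range 9 to 110), 20 in ΔWAPL/ΔSCC4 (9 to 104) and 23 in ΔWAPL (9 to 104).

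Dividing the summit reads by the library's genome-wide average gives a level that takes account of depth. The median SMC1 level was 8.97 in ΔSCC4, 12.97 in ΔWAPL/ΔSCC4 and 14.4 in ΔWAPL, against 11.95, 20.1 and 26.4 at regions of all 4 genotypes, where wild-type stood at 15.2. Thus the regions without a wild-type peak were at 0.548 to 0.750 of the level seen at constant regions in each deletion.

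**Figure D1:**
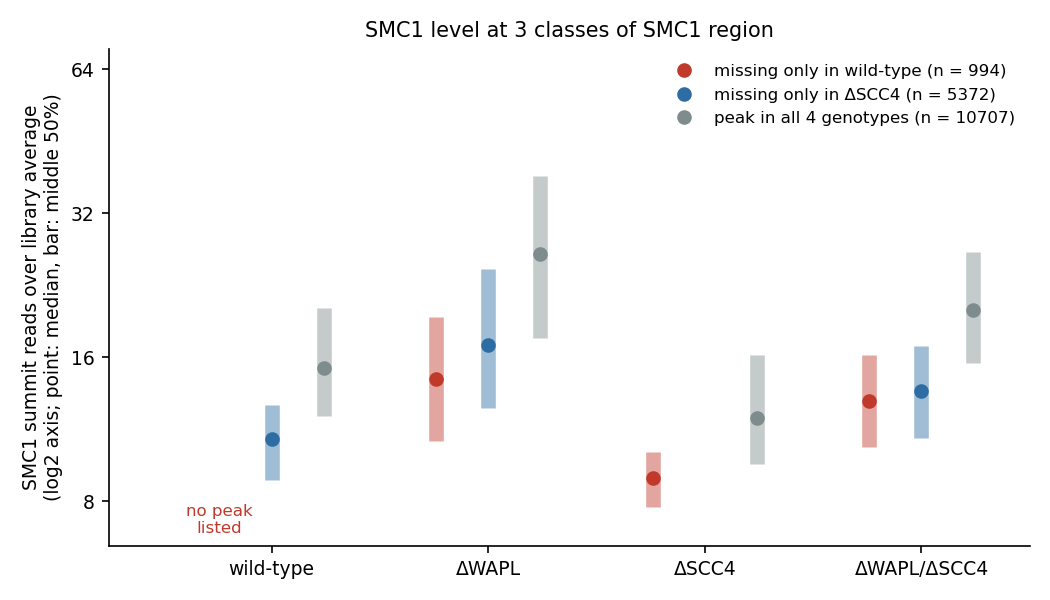
SMC1 level (summit reads over the library's genome-wide average, log2 axis) by genotype at regions missing only in wild-type (red), missing only in ΔSCC4 (blue) and present in all 4 genotypes (grey), with points for medians and bars for the middle 50% of regions. The red medians are 8.97 in ΔSCC4, 12.97 in ΔWAPL/ΔSCC4 and 14.4 in ΔWAPL, each below the grey median of the same library. The blue medians are 10.8 in wild-type, 13.6 in ΔWAPL/ΔSCC4 and 16.9 in ΔWAPL, also below the grey ones.

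Among the 3 deletions, the order of SMC1 levels at these regions was that of SMC1 regions in general. The level was higher in ΔWAPL than in ΔSCC4 at 867 of 994 regions (87.2%), with 91.8% over all regions that had both peaks as the background. It was higher in ΔWAPL/ΔSCC4 than in ΔSCC4 at 875 regions (88.0%, background 90.9%). Between ΔWAPL and ΔWAPL/ΔSCC4, ΔWAPL was the higher at 621 (62.5%, 59.4 to 65.4), against 72.6% of all regions with both peaks. That background did not require a ΔSCC4 peak or the absence of a wild-type one. The rule used these same peaks, so the more even division is a description and not a finding. The median ratio of ΔWAPL to ΔWAPL/ΔSCC4 was 1.12 (1.10 to 1.15), and 1.30 (1.29 to 1.31) at regions of all 4 genotypes.

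The weakest of the 3 peaks was that of ΔSCC4 at 752 regions, that of ΔWAPL/ΔSCC4 at 139 and that of ΔWAPL at 103. The lowest of the 3 −log10 q values of a region ranged from 1.87 to 21.8 with a median of 5.10, and all 3 were at 10 or more at 43 regions. These counts were not made over other regions. At constant regions ΔSCC4 also had the lowest median −log10 q of the deletions, 9.24 against 18.1 in ΔWAPL/ΔSCC4 and 27.0 in ΔWAPL. The split is therefore not read as a trait of the 994. At regions of all 4 genotypes the wild-type level exceeded that of ΔSCC4 in 76.2%, with a median ratio of 1.23. In peak calls the 994 regions therefore ran opposite to the usual order of those 2 libraries, which is what the rule selected. Their wild-type levels are unknown, so whether the order of levels was also reversed was not measured.

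Regions at either edge of the rule are described here without a test. Ranked by the lowest of the 3 −log10 q values, the weakest member lay in an intron of ITPK1 (chr14:93582082-93582472), 4 bp from a start site, with 12 reads in ΔSCC4, 21 in ΔWAPL/ΔSCC4 and 46 in ΔWAPL. Next came the 5′ end of SLC25A4 (chr4:186064138-186065058), which encodes a mitochondrial ADP/ATP carrier, with 11, 36 and 63 reads. Outside the rule, the weakest wild-type peaks among constant regions held 10 reads on chromosome 3 (chr3:33924925-33925351), where ΔSCC4 had 18, ΔWAPL/ΔSCC4 16 and ΔWAPL 19, and 11 reads in the UTR of SMAGP (chr12:51663273-51664357), where ΔSCC4 had 17, ΔWAPL/ΔSCC4 30 and ΔWAPL 21. The lowest members had fewer ΔSCC4 reads and more ΔWAPL reads than these constant regions. In both members the lowest value was that of ΔSCC4, whereas the constant regions were picked by their wild-type value. The difference in ΔSCC4 reads is therefore set by the ranking and is not a result.

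Most of the regions were stable CTCF sites. A CTCF peak was present in wild-type cells at 918 of 994 regions (92.4%, 95% Wilson interval 90.5 to 93.8), compared with 77.8% of all SMC1 regions and 98.9% of regions of all 4 genotypes. CTCF was present in all 4 genotypes at 890 (89.5%, 87.5 to 91.3), against 72.0% of all SMC1 regions and 98.4% of constant ones. A CTCF peak in the 3 deletions and none in wild-type was found at 3 of 994 regions (0.302%, 0.103 to 0.884), against 0.476% of all SMC1 regions. A CTCF peak in wild-type and in no deletion was found at 4 (0.402%), against 0.405%. Both shares lay near the background.

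At 62 regions (6.24%, 4.90 to 7.92) no CTCF list held a peak, a share between the 16.6% of all SMC1 regions and the 0.719% of constant ones. At 42 (4.23%) CTCF was listed in 1 to 3 genotypes, against 11.4% of all regions and 0.906% of constant ones. Of those 42, 17 lacked only the ΔSCC4 CTCF peak. Over all SMC1 regions ΔSCC4 was also the genotype with the lowest share of CTCF peaks, at 73.3% against 77.8% to 81.0%. The share of all regions that lacked only the ΔSCC4 CTCF peak was not counted, so the 17 are not read as a trait of these regions.

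CTCF was lower at these regions than at constant cohesin sites in each of the 4 libraries, including wild-type. At the 890 regions with CTCF in all genotypes, the median CTCF level was 38.7 in ΔWAPL (37.2 to 40.1), 39.2 in ΔSCC4 (38.4 to 40.8), 43.5 in ΔWAPL/ΔSCC4 (42.6 to 45.1) and 47.0 in wild-type (45.2 to 49.8). At constant regions it was 51.8, 55.5, 59.9 and 67.3 in the same order. Over all SMC1 regions with CTCF in all genotypes it was 41.6, 40.8, 45.9 and 51.6. At such regions missing only in ΔSCC4 it was 42.3, 40.8, 47.6 and 53.5. The levels at the 890 regions were nearer to these than to those of constant regions. Wild-type, the library without an SMC1 peak at the 890 regions, had the highest CTCF median of the 4, as it had in each of the other classes given.

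Compared region by region, the wild-type CTCF level exceeded that of ΔWAPL at 730 of 910 regions (80.2%), with a median ratio of 1.21 (1.20 to 1.24) and a background of 78.5%. It exceeded that of ΔSCC4 at 735 of 893 (82.3%, background 86.5%) with a ratio of 1.20, and that of ΔWAPL/ΔSCC4 at 583 of 911 (64.0%, background 65.6%) with a ratio of 1.10. These shares lay close to the background, and the direction was common to CTCF at SMC1 regions in general. On the scale of fold enrichment the ratio of wild-type to ΔWAPL was 1.06 (1.04 to 1.07).

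**Figure D2:**
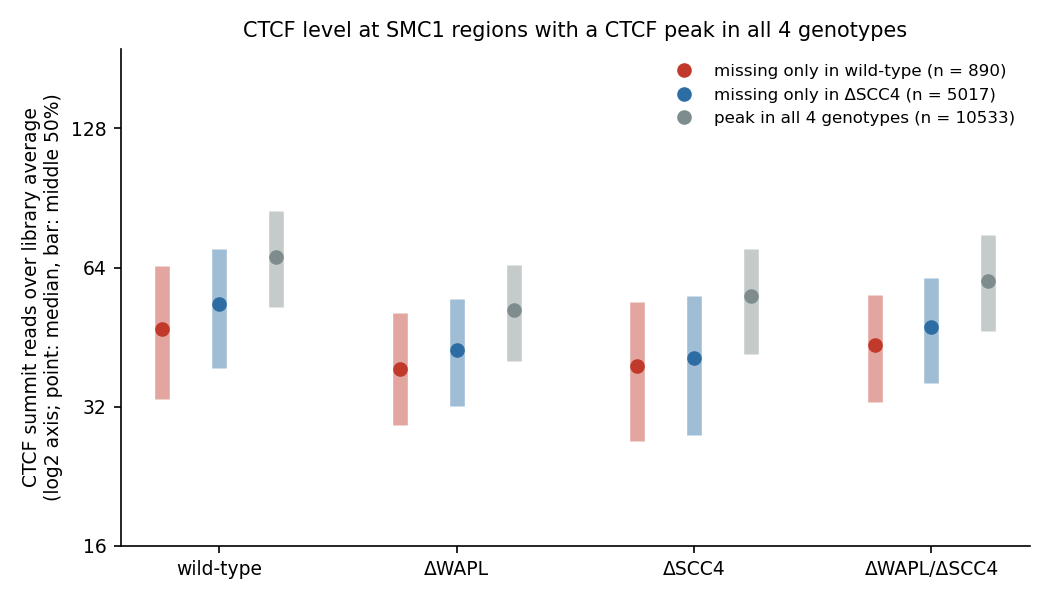
CTCF level (summit reads over the library's genome-wide average, log2 axis) where every genotype had a CTCF peak, by genotype, for regions missing SMC1 only in wild-type (red), only in ΔSCC4 (blue) or in no genotype (grey); points are medians and bars the middle 50%. The red medians run from 38.7 to 47.0, the blue ones from 40.8 to 53.5 and the grey ones from 51.8 to 67.3.

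The regions were also compared with constant regions in 3 ranges of ΔSCC4 summit reads. The ranges did not make the SMC1 strength equal. The median ΔSCC4 SMC1 level was 7.77 at the regions and 8.37 at constant ones in the lowest range, 10.2 and 10.8 in the middle one, and 13.7 and 16.1 in the highest. The gap was wider in ΔWAPL, with 13.2 and 18.8, 15.1 and 22.6, and 17.3 and 33.9. In ΔWAPL/ΔSCC4 the medians were 11.7 and 15.6, 13.6 and 17.5, and 17.5 and 25.3. With 15 or fewer ΔSCC4 reads, the median wild-type CTCF level was 45.2 (43.3 to 47.0) at the 510 regions with CTCF in all genotypes, and 59.0 (57.2 to 60.0) at 2213 constant ones. With 16 to 20 reads the medians were 49.8 (46.1 to 54.4) and 62.7 (61.8 to 64.6). Above 20 reads they were 53.5 (45.2 to 60.9) and 74.7 (73.8 to 75.6). The lower CTCF level was thus seen in each of the 3 ranges, in which the SMC1 levels were lower too. CTCF was missing from all lists at 7.41% (5.55 to 9.84) of the weakest 580 regions and at 1.36% (0.961 to 1.93) of the 2277 constant ones in that range.

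The motif followed the same order. On even-numbered chromosomes, which the motif was not learned from, 380 of 480 regions had a match (79.2%, 75.3 to 82.6), against 72.8% of all SMC1 regions and 89.8% of constant ones. The threshold was the score that 5% of windows 1000 bp away reached. Where CTCF was present in all genotypes the share was 83.2% (79.4 to 86.4), and where it was absent from all lists 7 of 26 regions had a match (26.9%, 13.7 to 46.1). The median score of the matches was 15.1 (14.7 to 15.8), below the 16.8 (16.7 to 16.9) of constant regions. It was 14.9 over all SMC1 regions and 15.4 at regions missing only in ΔSCC4.

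The strongest regions with CTCF in all 4 genotypes had clear SMC1 peaks in the deletions. The first lay 129 bp from the start of RYR2, the ryanodine receptor that releases calcium in heart muscle (chr1:237205154-237205913). It had 33 SMC1 reads in ΔSCC4, 40 in ΔWAPL/ΔSCC4 and 68 in ΔWAPL, and the nearest wild-type SMC1 summit was 83031 bp away. Its CTCF peak held 50 reads in wild-type, and 41, 71 and 67 in the same 3 deletions. The weakest wild-type CTCF peak in the list held 6 reads, so CTCF was well above the caller's limit in the library where SMC1 was not called.

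The second, in intergenic DNA 45459 bp from the start of RNF165 (chr18:43861125-43861704), had 70, 29 and 33 SMC1 reads in ΔWAPL, ΔSCC4 and ΔWAPL/ΔSCC4. Its CTCF level was highest in wild-type, at 93.2, against 61.2 to 73.8 in the deletions. The region in the intron of the non-coding gene ENSG00000263745 (chr18:2104827-2105267) showed another order, with 27 SMC1 reads in ΔSCC4, 27 in ΔWAPL and 40 in ΔWAPL/ΔSCC4, and CTCF levels of 30.4 in wild-type, 31.4 in ΔWAPL, 48.4 in ΔWAPL/ΔSCC4 and 49.8 in ΔSCC4. Here CTCF was higher in both SCC4 deletions than in the 2 genotypes with SCC4, whereas near RNF165 wild-type was the highest.

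A region in an intron of GHRHR, the receptor for growth hormone-releasing hormone (chr7:31023182-31023623), had 45, 31 and 27 SMC1 reads in ΔWAPL, ΔSCC4 and ΔWAPL/ΔSCC4. It had 70 CTCF reads in wild-type. An intergenic region 10038 bp from HECA (chr6:139446004-139446385) had 26, 22 and 35 SMC1 reads and, in wild-type, 25 CTCF reads, the fewest of the 10 strongest regions of this kind. These regions differed from one another in which deletion was highest: ΔWAPL in 5 of the 10, ΔWAPL/ΔSCC4 in 4 and ΔSCC4 in 1.

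**Figure D3:**
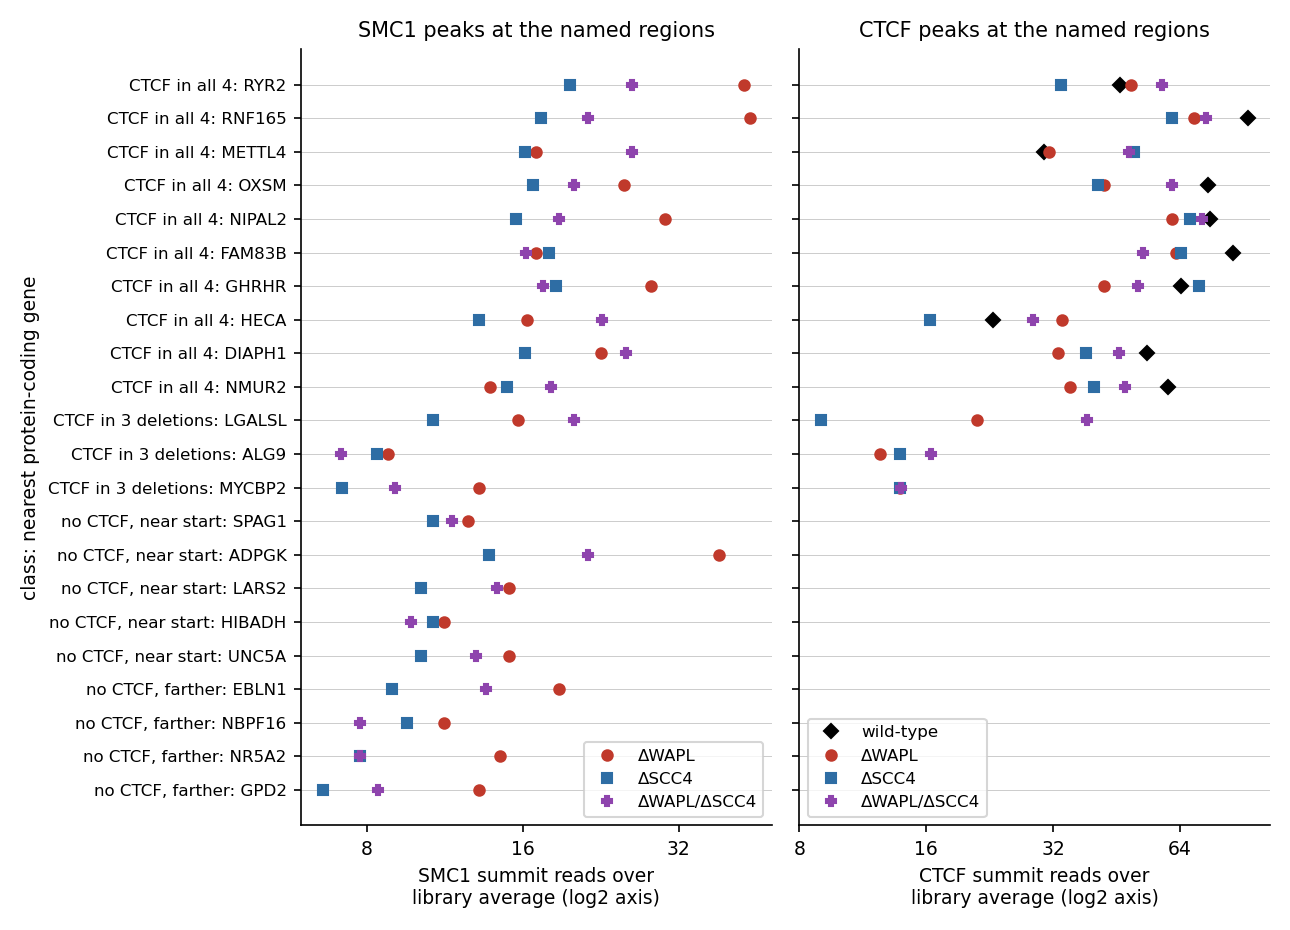
SMC1 level (left) and CTCF level (right), both as summit reads over the library average on log2 axes, at the 22 named regions, 1 point for each library with a peak and rows labelled by kind and by nearest protein-coding gene. No wild-type SMC1 point exists by the rule; the wild-type CTCF points of the upper 10 regions run from 23.1 to 93.2.

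CTCF was listed in the 3 deletions but not in wild-type at 3 regions. The region on chromosome 2 with CTCF in the deletions only (chr2:64539465-64539854) had SMC1 reads of 18 in ΔSCC4, 25 in ΔWAPL and 31 in ΔWAPL/ΔSCC4, and its CTCF reads were 11, 29 and 47 in the same order. At the 5′ ends of ALG9, a mannosyltransferase of N-glycosylation (chr11:111741553-111742241), and of MYCBP2, an E3 ubiquitin ligase (chr13:77900630-77901085), CTCF reads lay between 17 and 20 in each deletion. Regions with constant CTCF had medians of 48 reads in ΔSCC4 and of 53 in both other deletions. None of the 3 regions reached these medians in any deletion.

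Start sites were a minor location overall and the main one where CTCF was absent. A summit lay within 1 kb of an annotated transcription start at 279 of 994 regions (28.1%, 25.4 to 30.9), against 32.7% of all SMC1 regions and 23.3% of constant ones. With −log10 q of at least 5 required of the deletions' peaks the share fell to 19.7%, below the 22.9% of constant regions, whereas with lists of equal length it was 29.4% (26.1 to 32.9), above the 24.8% of constant regions. Its place relative to constant regions thus depended on the setting. Of the 62 regions without CTCF, 56 were near a start (90.3%, 80.5 to 95.5), compared with 223 of the 932 others (23.9%, 21.3 to 26.8). The same contrast existed over all SMC1 regions, with 82.2% and 22.9%.

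These CTCF-free promoter regions were GC-rich and broad. Their median GC content over 201 bp was 72.9% and their median width 615 bp, against 45.8% and 415 bp at the 692 regions with constant CTCF away from starts. Near starts, the 198 regions with constant CTCF had 64.7% and 483 bp, and the 25 with CTCF in 1 to 3 genotypes 73.6% and 577 bp. High GC content and width were thus in part shared by regions near starts that had CTCF. Their median SMC1 fold enrichment was 4.27 in ΔSCC4, 4.51 in ΔWAPL/ΔSCC4 and 5.06 in ΔWAPL, lower than the 5.23, 6.23 and 6.53 at those 692 regions.

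By the lowest of the 3 −log10 q values, the first were the starts of SPAG1, a factor in the assembly of ciliary dynein arms, ADPGK, an ADP-dependent glucokinase, LARS2, the mitochondrial leucyl-tRNA synthetase, HIBADH, an enzyme of valine breakdown, and UNC5A, a netrin receptor. ADPGK (chr15:73075623-73076369) had 23 SMC1 reads in ΔSCC4, 33 in ΔWAPL/ΔSCC4 and 61 in ΔWAPL. The other 4 had between 18 and 24 reads in ΔWAPL and 17 or 18 in ΔSCC4, so that ADPGK stood apart through ΔWAPL.

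The DRG2 start, whose sequence is shown above, had fold enrichments of 4.86 in ΔSCC4, 5.76 in ΔWAPL/ΔSCC4 and 8.30 in ΔWAPL, and the CD47 start 5.68, 4.46 and 5.11. Away from starts and without CTCF there were 6 regions. They included a coding exon of NR5A2, a nuclear receptor (chr1:199997970-199998609), with 23, 13 and 12 SMC1 reads in ΔWAPL, ΔSCC4 and ΔWAPL/ΔSCC4, and the intergenic stretch on chromosome 10 shown above (chr10:22517973-22518436) with 30, 15 and 21.

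Few regions lay at the starts of the gene groups examined, as was the case for SMC1 regions in general. No region lay within 1 kb of a start of any of 16 genes for cohesin subunits and regulators, 64 replication-dependent histone genes or 39 HOX genes, starts that held 0.0395%, 0.0552% and 0.0395% of all SMC1 regions, or less than 1 region in 994. Among 86 cytosolic ribosomal protein genes the regions included RPS27A and RPL32 (0.201%, against 0.142% of all SMC1 regions). Among 78 mitochondrial ones (0.101%, against 0.166%) they included MRPS31, whose SMC1 fold enrichment was 11.5 in ΔWAPL against 4.49 in ΔSCC4 and 4.13 in ΔWAPL/ΔSCC4. Of 508 zinc-finger genes, the starts of ZNF554, ZNF804A and ZNF860 were included, which is 0.302% of the regions against 0.568% of all SMC1 regions and 0.299% of constant ones.

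The clustered protocadherins are cell adhesion genes, many of whose alternative promoters bind CTCF. They contributed 2 starts among 53 genes (0.201% of the regions, against 2 of 10707 constant regions and 0.0342% of all SMC1 regions). PCDHA11 (chr5:140248363-140249275) had SMC1 fold enrichments of 6.79, 4.12 and 5.89 in ΔWAPL, ΔSCC4 and ΔWAPL/ΔSCC4. PCDHB3 (chr5:140479893-140480232) had 6.17, 4.86 and 5.51. A further region lay in a UTR annotated to PCDHGA1 at the far end of the gamma cluster (chr5:140891856-140892304), with 36, 27 and 39 SMC1 reads and 58 CTCF reads in wild-type. Each of the 3 clusters of the locus thus held at least 1 region with SMC1 in the 3 deletions only.

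With regard to the annotation at the summit, 451 regions were intronic (45.4%, 42.3 to 48.5), 378 intergenic (38.03%), 84 in a UTR (8.45%, 6.88 to 10.3), 54 in a non-coding exon and 27 in a coding exon. Constant regions had 45.5% in introns and 4.79% (4.40 to 5.21) in UTRs. The regions were narrower than constant ones, with a median width of 432 bp against 498 bp. An IgG peak overlapped 7 of them (0.704%, 0.342 to 1.45), against 1.15% of all SMC1 regions.

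The rule, which allows no wild-type peak in a region, sets a distance to wild-type cohesin sites. The median distance from the summit to the nearest wild-type SMC1 summit was 51547 bp (45939 to 58079), and regions missing only in ΔSCC4 lay a like 55885 bp (53426 to 58327) from the nearest ΔSCC4 summit. Of the 994, 16 had one within 1 kb, 489 had one within 50 kb, and 24 had none within 500 kb. The smallest distance was 401 bp. On chromosomes 1 to 22 and X and outside IgG peaks, the nearest cases were an intronic region on chromosome 13 (chr13:54356520-54357140), 475 bp from a wild-type summit, and an intergenic one on chromosome 19 (chr19:15667200-15667567), 505 bp away. Among all SMC1 regions in order along the chromosome, 72 of the 994 (7.24%) had another such region as direct neighbour on either side. The 994 made up 2.61% of all regions, a share that applies to a single neighbour and not to either of them.

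The DNA around these regions was richer in A and T than that around constant regions, a property that the rule did not use. The median GC content of the surrounding 100 kb was 40.6% (40.2 to 41.0) at the 992 regions on chromosomes 1 to 22 and X, against 43.4% (43.3 to 43.6) at constant regions and 43.1% (42.8 to 43.3) at regions missing only in ΔSCC4. It was lower still, at 39.0% (38.2 to 40.0), at the 143 regions missing only in ΔWAPL. Among regions with a peak in all 3 deletions, the share without a wild-type peak was 16.3% (267 of 1641, 14.6 to 18.1) where the GC content was at most 38%. It was 11.6% from 38% to 40%, 9.18% from 40% to 42%, 8.401% from 42% to 45%, and 4.43% (199 of 4496, 3.86 to 5.07) above 45%. The share in the lowest range was 3.68 times that in the highest (3.09 to 4.38).

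The decline was not shared by the largest class that lacked 1 genotype. Of the regions with peaks in the other 3 genotypes, 35.0% (33.0 to 37.03) lacked a ΔSCC4 peak at a GC content of at most 38% and 32.3% (31.1 to 33.4) above 45%. The share missing only in ΔWAPL did fall, from 3.92% (3.03 to 5.05) to 0.509% (0.337 to 0.770), while that missing only in ΔWAPL/ΔSCC4 was 1.86% (1.27 to 2.71) and 2.16% (1.77 to 2.64).

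The decline was present in each of the 3 ranges of ΔSCC4 reads. With 15 or fewer ΔSCC4 reads the share missing in wild-type was 28.6% (25.0 to 32.5) in the lowest GC range and 12.1% (10.2 to 14.4) in the highest. With 16 to 20 reads it was 16.7% (13.7 to 20.2) and 5.25% (4.16 to 6.599), and above 20 reads 3.84% (2.55 to 5.74) and 0.916% (0.600 to 1.40). Regions farther than 1 kb from any start gave 15.96% (14.1 to 18.0) and 3.97% (3.35 to 4.70). When the 4 lists were cut to equal length the ratio of lowest to highest range was 1.87 (1.49 to 2.35), and there 199 of the 681 regions overlapped one of the 994.

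**Figure D4:**
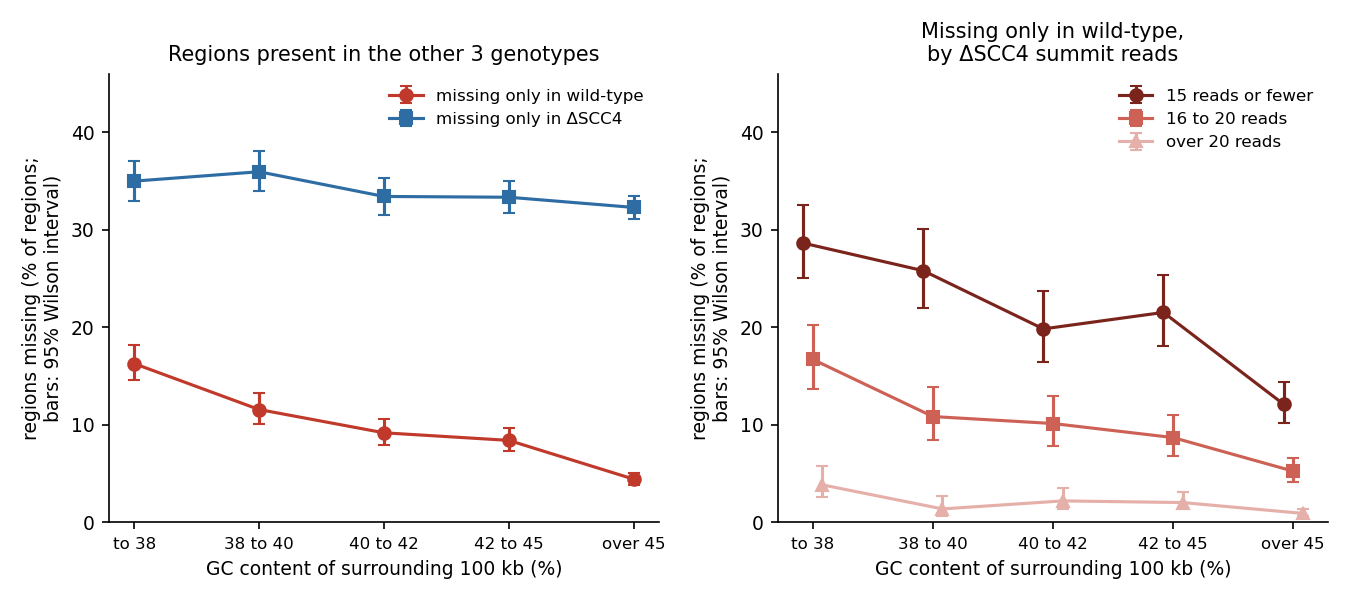
Share of SMC1 regions missing in 1 genotype (%, axis from 0, bars are 95% Wilson intervals) against the GC content of the surrounding 100 kb. Left, regions missing only in wild-type fall from 16.3% to 4.43% and those missing only in ΔSCC4 run from 35.0% to 32.3%; right, the fall in regions missing only in wild-type is seen within each of 3 ranges of ΔSCC4 summit reads.

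By chromosome, the share among regions with peaks in the 3 deletions was highest on chromosome 4 (75 of 557, 13.5%, 10.9 to 16.6) and chromosome 13 (35 of 273, 12.8%, 9.36 to 17.3). It was lowest on chromosome 17 (24 of 515, 4.66%, 3.15 to 6.84) and chromosome 19 (19 of 389, 4.88%, 3.15 to 7.50). The intervals of chromosomes 4 and 17 did not overlap.

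The libraries themselves differed in how their SMC1 signal depended on base composition. At constant regions the median ratio of the wild-type to the ΔSCC4 SMC1 level was 1.12 in the lowest GC range and 1.30 in the highest, so that wild-type SMC1 was lower relative to ΔSCC4 in AT-rich DNA. The ratio of their local backgrounds, each over its library average, moved from 1.00 to 1.11. Relative to ΔWAPL the wild-type level went from 0.758 to 0.521, and relative to ΔWAPL/ΔSCC4 from 0.734 to 0.803. The wild-type to ΔSCC4 ratio of CTCF levels at the same regions was 1.19 and 1.23. The part of this dependence in the base composition of the 994 regions was not tested.

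Among the regions themselves, the SMC1 level in ΔWAPL varied with base composition. The median ΔWAPL SMC1 level was 11.3 in the lowest GC range (267 regions) and 18.2 in the highest (199 regions), while that of ΔSCC4 was 8.97 in both and that of ΔWAPL/ΔSCC4 12.3 and 12.97. In the lowest GC range ΔWAPL/ΔSCC4 thus had the highest median of the 3 deletions. In every range above 38% ΔWAPL had, with 13.2 against 12.97 from 38% to 40%. Constant regions showed a like change. There the wild-type level was 0.758 of ΔWAPL and 0.734 of ΔWAPL/ΔSCC4 in the lowest range, and 0.521 and 0.803 in the highest.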

How the data were processed

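The authors mapped reads to hg19 with Bowtie2 and called peaks per library with MACS2 2.1.1, per the methods and the submitters' processing notes. The deposited lists give the interval and summit of each peak, its fold enrichment (a ratio of summit reads to local background, each with 1 read added by the caller), and its p-value and q-value as −log10. The methods name IgG as control. However, for 100% of peaks above the lowest background of a list, the recovered background was a whole number of reads in 10 kb of the same library. The calling threshold was not given in the sources used here.

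Samples were grouped by antibody and genotype from their labels. The 4 SMC1 lists were merged at an overlap of at least 1 bp. For each region and library the peak of highest fold was kept. The whole-number pileup and background that solve fold and −log10 p together were found for 100% of peaks in each of the 12 lists. The lowest background over the shortest interval gave the average reads per kb, and the level is the summit reads over the lowest background. No peak of the 267921 lay beyond a chromosome end of GRCh37. Start sites and genes were those of GENCODE version 44 mapped to GRCh37. The motif was learned from windows of 101 bp around CTCF summits of wild-type cells, odd-numbered chromosomes only (the 1000 of highest −log10 q outside IgG peaks), of which 897 entered the matrix, and scored in windows of 201 bp.

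With 1 library per group no test was run. Shares have 95% Wilson intervals and medians exact order-statistic intervals, which cover counting error only. Distances run from the ΔWAPL summit.

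Named regions lie on chromosomes 1 to 22 and X outside IgG peaks, ranked by the lowest of the 3 −log10 q values. They are the first 10 with CTCF in all genotypes and the first 5 (or all) of each other CTCF class, with 2 each at the lower edge, just outside the rule and nearest to a wild-type peak. Up to 3 sequences a class were read in that ranking, passing over those whose 61 bp hold a UTR and 1 chromosome not shown here, and 9 of these 11 are printed. In the class without CTCF near starts, this went past the first 5. The members and lists were chosen with earlier results of these data known, and the comparison by base composition and by ΔSCC4 reads was added after seeing the data. Steps were tested on simulated data. Python 3.11.15, numpy 2.4.6, scipy 1.17.1, pandas 2.3.3, statsmodels 0.14.6 and pysam 0.24.0 were used.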

Additional observations from a re-analysis of the deposited data

Results flagged for a closer look

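The CTCF level at the 890 regions with CTCF in all 4 genotypes changed in opposite directions with SCC4 loss, depending on WAPL. Without SCC4 in otherwise unmodified cells, the median ratio to wild-type was 0.831 (0.818 to 0.843), with 157 of 890 regions higher. In ΔWAPL cells the ratio of ΔWAPL/ΔSCC4 to ΔWAPL was 1.12 (1.10 to 1.14), with 636 higher. The same held for WAPL loss, with a ratio of 0.818 (0.805 to 0.830) in cells with SCC4, where 167 of 890 regions were higher, and of 1.11 (1.08 to 1.13) in ΔSCC4 cells, where 583 were higher. Each genotype had 1 library, the 4 ratios share libraries, and the difference was not tested. At constant regions the 4 ratios were 0.821, 1.16, 0.770 and 1.08 in the same order, so the pattern was also present there.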

How the results depend on the processing

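With IgG regions removed, chromosomes 1 to 22 and X only, or intervals closer than 500 bp merged, each share, median and ratio stayed within its interval and the regions numbered 987 to 992. Requiring −log10 q of at least 5 of the deletions' peaks left 523 regions. Values under −log10 q of at least 5 in all 4 lists, the same for the deletions only, equal list lengths, and depth scaling with −log10 p of at least 8, in this order, were 98.1%, 97.9%, 99.3% and 98.1% for wild-type CTCF and 85.9%, 85.1%, 90.1% and 85.6% for the motif. The median ΔWAPL fold enrichment was 7.13, 6.99, 9.29 and 7.29. The share near starts was 22.9%, 19.7% and 23.1% under the first, second and last of these, and 29.4% with equal list lengths. The wild-type to ΔWAPL CTCF ratio was 1.24 under the first and last, and 1.06 by fold enrichment. Constant regions under the first setting had 99.4% for CTCF and 22.7% near starts. With equal list lengths the GC ratio was 1.87. Other definitions gave 45.3% within 5 kb of a start, 20.0% near starts of protein-coding transcripts, 62.3% with a motif at the score that 1% of flanking windows reach, and 14.4 for ΔWAPL by level in place of fold. The cause of these shifts was not tested. Under the settings that filter all 4 lists, a region with a weak wild-type peak can enter, and 523 of 890 and 457 of 743 regions overlapped one of the 994. Depth limits each call: at average background no listed wild-type peak held under 9 summit reads, and the lowest in the whole list held 8.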

Other observations

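The SMC1 and CTCF summits of these regions were spread around the motif. The motif was searched within 100 bp of the ΔWAPL SMC1 summit, which limits that offset. At the 792 regions with a motif match, the median SMC1 summit in ΔWAPL was at 0 bp from the motif centre (−3 to 4), read along the motif, with the middle 50% of regions between −23.2 and 25 bp. It was at −4 bp (−8 to 1) in ΔSCC4, where the middle 50% ran from −32.2 to 27 bp, and at 1.5 bp (−2 to 6) in ΔWAPL/ΔSCC4. The median wild-type CTCF summit was at −9 bp (−10 to −8), on the 5′ side. At constant regions the ΔWAPL SMC1 summit was at 3 bp (2 to 4) and the wild-type CTCF summit at −10 bp (−10 to −9). The ΔWAPL SMC1 summit was on the 3′ side of the motif centre at 394 of 788 regions (50.0%, 46.5 to 53.5), against 53.7% of constant regions. The motif was on the plus strand at 412 of 792 regions (52.0%, 48.5 to 55.5).

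Of the 994 regions, 11.2% (9.36 to 13.3) lay more than 50 kb from any start site, inside or outside a gene, against 8.00% of constant regions.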
